A study of Mus musculus with 6 samples.

Results

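Interferon-stimulated genes encode the proteins with which a cell resists viral infection. Type I interferon binds its receptor at the cell surface, kinases bound to the receptor become active, and transcription factors then bind the interferon-stimulated response element in the promoters of such genes. The effector genes described here lie outside the large IFIT, OAS, GBP, IRG, TRIM and PARP families, and their products act at many steps, from virus entry and release to the supply of nucleotides and the decay of RNA. They were chosen by name, and all 36 were among the 11835 genes to which the transcripts in the deposited table could be assigned.

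RNA was sequenced from C2C12 cells, a mouse myoblast line, after transfection with NC siRNA (siNC, 3 libraries) or CNN3 siRNA (siCNN3, 3 libraries). Every library came from cells of this 1 line that had been exposed to a transfected siRNA and to differentiation medium with 2% horse serum, and untransfected cells were not analysed here. The labels call the cells mouse myotube and the study calls them differentiating myoblasts. The study gives a harvest time for its differentiation analyses as a whole and does not state it for the sequenced cells. The CNN3 siRNA used for them is not named, and nothing says whether the 3 libraries of a group were grown separately, so the p-values measure the spread between these libraries, which may be technical.

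Values are FPKM, the fragments of a transcript scaled by its length and by the mapped total of the library, and were summed over the transcripts of a gene. Differences are on the scale log2(FPKM + 1), siCNN3 minus siNC, on which changes at low FPKM appear smaller than they are. They were tested by limma over the 11593 genes whose mean over the libraries reached 0.5 FPKM, and a gene counted as called where its Benjamini-Hochberg adjusted p was under 0.05. All adjusted p-values below are of this kind. With 3 libraries against 3, a two-sided exact permutation test cannot go below p = 0.1, its value for any gene whose groups do not overlap. Read numbers were not given, so no counting error can be stated, and a gene listed at exactly 0 may be a failed estimate.

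Cnn3, the target of the siRNA, was at 62.8, 61.4 and 62.8 FPKM in the siNC libraries, compared with 19.04, 39.2 and 25.6 FPKM in the siCNN3 libraries, values being given here and below in the order of replicates 1, 2 and 3. Its groups did not overlap, and its log2 difference of -1.19 was not called (adjusted p = 0.0669, limma). Without siCNN3 replicate 2, the siCNN3 library with the most Cnn3, the difference was -1.46 and called (adjusted p = 0.0475). The other fits with a library left out did not call Cnn3 (adjusted p up to 0.225). Muscle markers of the labelled line were present in part. Des was at 84.3 FPKM or more in every library, Ckm was below 1 FPKM in all of them, and the 11 listed markers summed to between 183 and 216 FPKM in siNC and to between 119 and 132 FPKM in siCNN3, with Acta1, Myh3, Tnnt3 and Mylpf, of 10 tested, called lower. The other 6 were not called. Of these, Mymk, Myog, Myod1 and Des had every siCNN3 library below every siNC library (log2 differences -1.03, -0.85, -0.42 and -0.36). Groups overlapped for Cdh15 (-0.11) and the myoblast gene Myf5 (0.88, adjusted p = 0.238). Myf5 was called higher without siCNN3 replicate 3 (adjusted p = 0.0297). In all, 8 of the 10 lay below siNC in every library (9.35% of all tested genes). At an unadjusted p below 0.05, 7 were lower and 1 was higher (712 and 1152 of all 11593). Over all tested genes, 0.336% were called lower. Only 2 of 12 leukocyte markers, Cd68 and Lyz2, had a transcript in the table, and they summed to between 4.72 and 10.2 FPKM in siNC and to between 2.81 and 4.04 FPKM in siCNN3. The 3 endothelial markers had none, and the epithelial markers Epcam and Krt8 summed to at most 3.79 FPKM. In bulk RNA, fewer cells of a type and less RNA per cell cannot be told apart, and the part of these marker differences in the results below was not tested.

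Most of the effector genes were at a higher level in siCNN3. Of the 36 genes, 35 passed the filter on low values, 14 were called higher and 0 were called lower, where 1.73% of all tested genes were called higher and 0.336% lower. With the replicate number as a block, 4 were called higher, and with each gene tested on its own, 0. With 1 library left out, from 1 to 20 were called higher. Without adjustment, 30 of the 35 genes were higher at p below 0.05 (9.94% of all tested genes) and 1 was lower, Ifi27 (712 of all 11593). For those 30 genes every siCNN3 library was above every siNC library, compared with 13.8% of all tested genes, and for Ifi27 every siCNN3 library was below (9.35% of all tested genes). The median log2 difference was 2.23 over the 35 genes and 0.03 over all tested genes. Epsti1 was the 1 gene under the filter, listed between 0 and 0.268 FPKM in siNC and between 0.0843 and 0.585 FPKM in siCNN3.

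**Figure D1:**
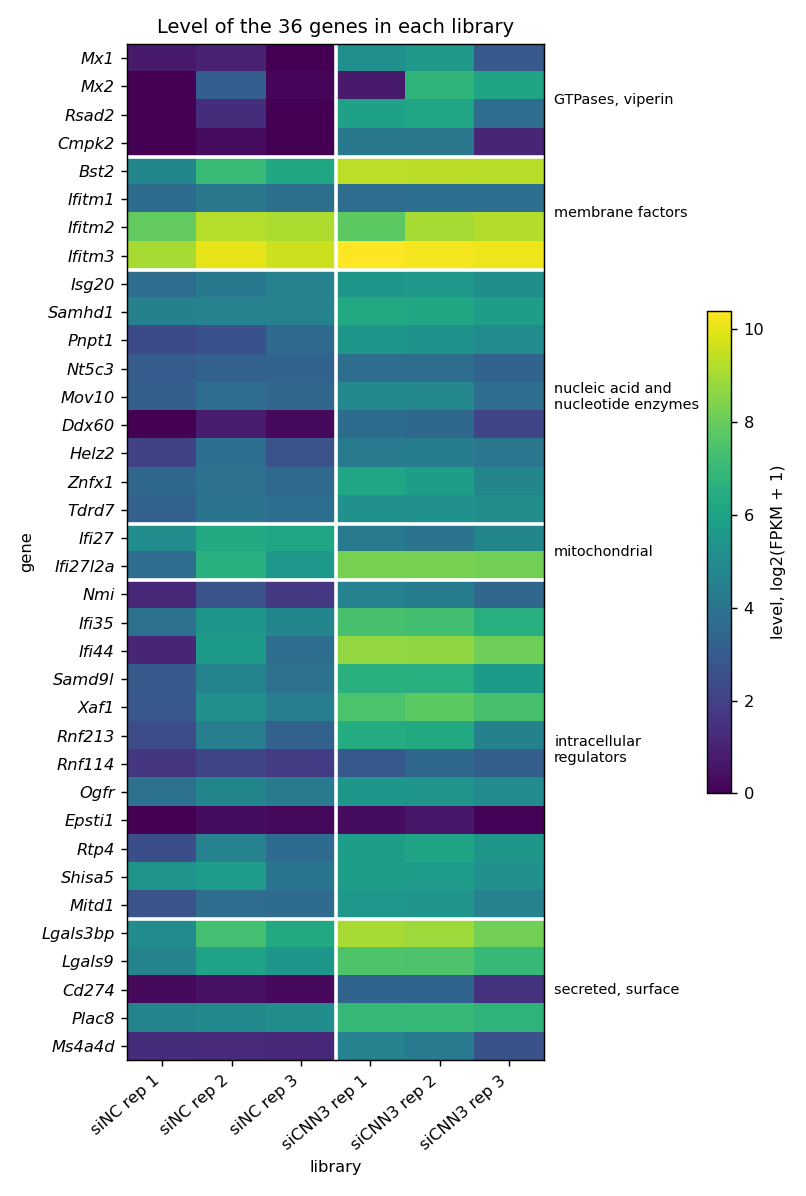
Level of the 36 genes in each library as log2(FPKM + 1), with 1 row a gene, grouped by role, and 1 column a library. For 30 genes the 3 siCNN3 columns are all brighter than the 3 siNC columns, while Ifitm1, Ifitm2, Shisa5, Mx2 and Epsti1 overlap and Ifi27 is darker.

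**Figure D2:**
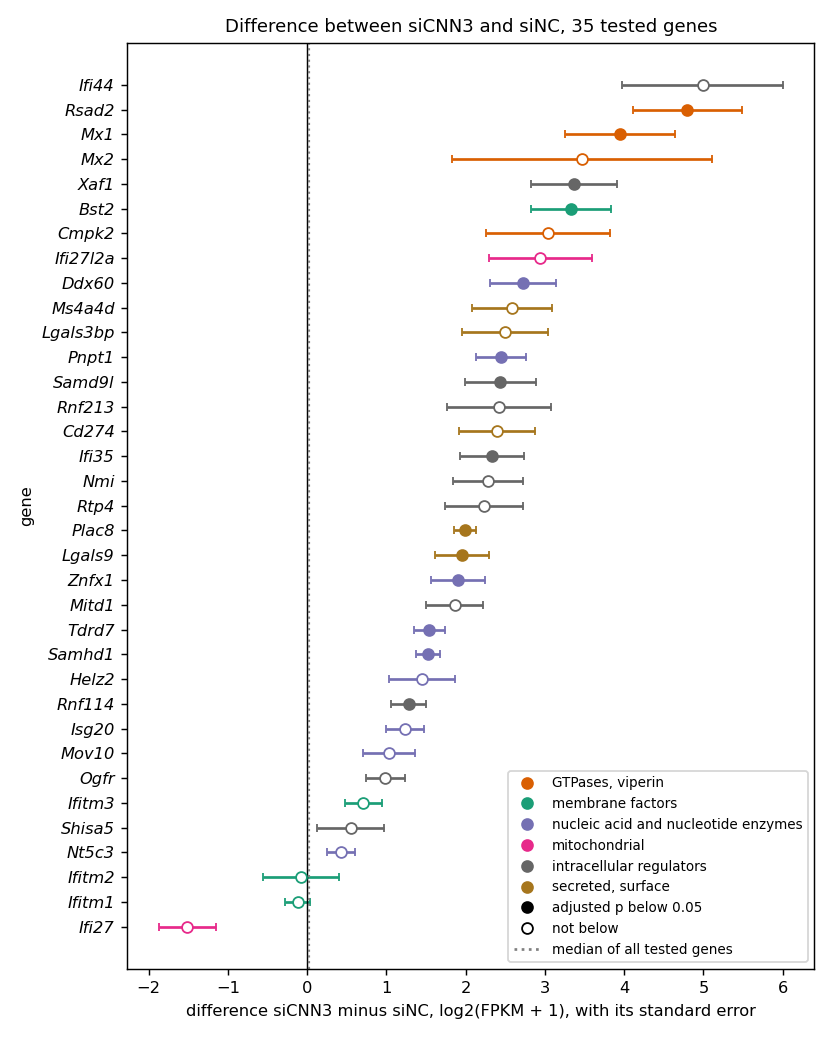
Difference between siCNN3 and siNC on the log2(FPKM + 1) scale for the 35 tested genes, with the standard error from limma as bars. Filled points are the 14 genes called higher, open points were not called, and the dotted line is the median of all tested genes at 0.03.

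Promoter sequences from RefSeq (build GRCm38.p6, 250 bases before to 50 after a start site) were given for 31 of the 36 genes and searched on both strands for the core of the interferon-stimulated response element, GAAA followed after any 2 bases by GAAA. At least 1 window held it for 10 of the 31 genes, or 32.3%, and the share over all 27025 genes with a window was 3.99%. By single windows it was 23.3% of 43 and 3.44% of 32851. Of the 13 called genes with a window, 5 held it (Rsad2, Bst2, Ddx60, Tdrd7 and Lgals9), and so did Ifitm2, Ifitm3, Ogfr, Mitd1 and Shisa5, which were not called. A match is only a match of letters, and genes without one can hold a variant of the element or hold it elsewhere. The stretches below show the match, in capitals, in genes taken up in the paragraphs that follow. They are written 5′ to 3′ in the direction of the gene, so that a match on the opposite strand reads TTTC, any 2 bases, TTTC.
Rsad2 at chr12:26456553-26456582, minus strand, match from -120 relative to the start: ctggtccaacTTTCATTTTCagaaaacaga
Bst2 at chr8:71537580-71537609, minus strand, 2 overlapping matches: attccagGAAAATGAAACTGAAAggctgca
Ddx60 at chr8:61928058-61928087, plus strand, 1 of 2 matches: gagcagaagaGAAACCGAAActatccttca
Ifitm3 at chr7:141010715-141010743, minus strand, 2 matches: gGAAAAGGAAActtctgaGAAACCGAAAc
Ifitm2 at chr7:140955988-140956017, minus strand: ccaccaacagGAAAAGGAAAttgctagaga
Lgals9 at chr11:78984960-78984989, minus strand, 1 of 2 matches: tgacatcagcTTTCTTTTTCtctagacact
Shisa5 at chr9:109054888-109054915, plus strand, in 1 of its 5 windows: taagattcgaTTTCCTTTTCtttgaaag

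The GTPases and viperin had low levels in siNC. Rsad2 encodes viperin, a radical SAM enzyme that turns CTP into a chain terminator of viral RNA synthesis (chromosome 12 of GRCm38, 26442746 to 26456452). It was listed at 0, 1.57 and 0 FPKM in the siNC libraries, compared with 60.2, 67.1 and 12.2 FPKM in the siCNN3 libraries. Its groups did not overlap, and it was called higher (log2 difference 4.80, standard error 0.687, adjusted p = 0.0253). Cmpk2, a mitochondrial nucleotide kinase gene, is its neighbour, separated from it by 12751 bases and read in the other direction. Cmpk2 had lower levels, with siCNN3 replicate 3 again the lowest siCNN3 library, at 0, 0.247 and 0 FPKM in the siNC libraries, compared with 17.05, 16.4 and 1.18 FPKM in the siCNN3 libraries, and was not called (log2 difference 3.03, adjusted p = 0.115). Mx1 and Mx2 encode dynamin-like GTPases that block viral replication, Mx1 in the nucleus and Mx2 in the cytoplasm in the mouse, and they lie 72400 bases apart on chromosome 16. Mx1 was at 0.702, 1.04 and 0.0282 FPKM in the siNC libraries, compared with 36.2, 46.5 and 6.43 FPKM in the siCNN3 libraries. It was called higher (log2 difference 3.95, standard error 0.689, adjusted p = 0.0442), a call lost with a pseudocount of 0.1 (adjusted p = 0.0533) or without a trend in limma (adjusted p = 0.0505). Its leading transcript alone, Mx1-201, had 2.73 and was not called (adjusted p = 0.15). Mx1-202, at 0 FPKM in siCNN3 replicate 3 and 45.6% of the gene in siCNN3 replicate 2, was a failed estimate by the rule used here. With failed estimates left out, Mx1 was still called higher (log2 difference 3.58, adjusted p = 0.0337). Mx2 was at 0, 7.54 and 0.121 FPKM in the siNC libraries, compared with 0.697, 111.3 and 66.9 FPKM in the siCNN3 libraries. Its siCNN3 replicate 1 fell within the siNC values, and Mx2 was not called (log2 difference 3.47, standard error 1.65, adjusted p = 0.36). Leaving out siCNN3 replicate 1 gave Mx2 a log2 difference of 5.36, still not called (adjusted p = 0.107). Mx1 was called in 1 of 6 fits with a library left out, that lacking siCNN3 replicate 3, and Rsad2 in 2, lacking either siNC replicate 2 or siCNN3 replicate 3 (at most 0.177 for Mx1 and 0.125 for Rsad2 as adjusted p elsewhere).

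The membrane factors divided into Bst2, which was called, and the IFITM genes, which were not. Bst2 encodes tetherin, which holds budding virions at the cell surface (chromosome 8, 71534255 to 71537456). It was at 26.4, 129 and 71.7 FPKM in the siNC libraries, compared with 661, 638 and 620.0 FPKM in the siCNN3 libraries. The mean rose 8.44-fold, from 75.8 ± 51.5 to 640 ± 20.7 FPKM (SD, n = 3), and the siCNN3 libraries lay much closer together than the siNC libraries (log2 difference 3.33, standard error 0.507, adjusted p = 0.0304). The call of Bst2 held in the 3 fits that left out siNC replicate 1, siNC replicate 2 and siCNN3 replicate 3 in turn, and was lost in the others, where the adjusted p reached 0.126.

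The IFITM proteins hinder the fusion of viral with cellular membranes, and the 3 genes lie within one cluster on chromosome 7. Ifitm3 had the highest level of all 36 genes, at 526, 1025 and 768 FPKM in the siNC libraries, compared with 1341, 1207 and 1122.5 FPKM in the siCNN3 libraries. Its groups did not overlap, and the difference, 0.71 on the log2 scale (standard error 0.231), was not called (adjusted p = 0.196). Ifitm2 was at 236, 601 and 545 FPKM in the siNC libraries, compared with 219, 515 and 584 FPKM in the siCNN3 libraries. Replicate 1 of each group was the lowest, the groups overlapped, and the log2 difference was -0.08 (standard error 0.475, adjusted p = 0.956), with a sign that turned on leaving out any of siNC replicates 2 and 3 and siCNN3 replicate 1 (0.17, 0.10 and 0.36). Ifitm1 was at 11.7, 16.8 and 13.2 FPKM in the siNC libraries, compared with 12.1, 13.01 and 12.8 FPKM in the siCNN3 libraries. All 3 siCNN3 values of Ifitm1 fell within the siNC range (log2 difference -0.12, standard error 0.158, adjusted p = 0.758, and 0.018 without siNC replicate 2).

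Ifi27 and Ifi27l2a, members of the same family of small hydrophobic proteins that locate to mitochondria, lie 1927 bases apart on chromosome 12 and face each other. Ifi27l2a was at 12.1, 95.9 and 45.9 FPKM in the siNC libraries, compared with 306, 305 and 289 FPKM in the siCNN3 libraries. Ifi27 was at 32.7, 81.8 and 69.8 FPKM in the siNC libraries, compared with 18.8, 14.8 and 26.2 FPKM in the siCNN3 libraries. The groups of both genes did not overlap, with siCNN3 above for Ifi27l2a and below for Ifi27. Within siNC, however, both genes were lowest in replicate 1 and highest in replicate 2. On the log2 scale Ifi27l2a differed by 2.94 (standard error 0.647, adjusted p = 0.0805) and Ifi27 by -1.51 (standard error 0.364, adjusted p = 0.1), and neither was called. Ifi27l2a was called higher without siNC replicate 2 (adjusted p = 0.0332) and Ifi27 lower without siNC replicate 1 (adjusted p = 0.0486). In the other fits with a library left out neither was called, and the adjusted p reached 0.257 for Ifi27l2a and 0.313 for Ifi27. Of the 6 transcripts of Ifi27, the leading one, Ifi27-205, held between 68.4% and 76.2% of the FPKM of the gene in each library and was at 23.8, 62.4 and 51.97 FPKM in the siNC libraries, compared with 13.97, 10.99 and 17.9 FPKM in the siCNN3 libraries.

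**Figure D3:**
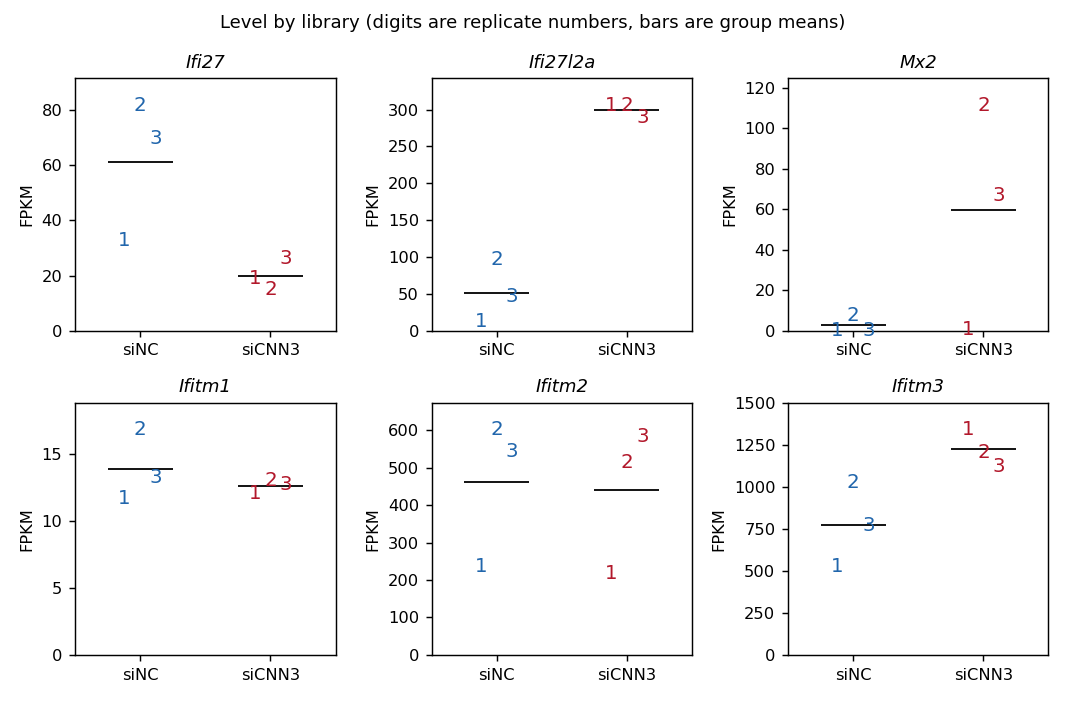
FPKM of Ifi27, Ifi27l2a, Mx2, Ifitm1, Ifitm2 and Ifitm3 in each library, with the replicate number as the symbol and the group mean as a bar. Ifi27l2a and Ifitm3 have all siCNN3 values above siNC, Ifi27 has them below, and Mx2 has siCNN3 replicate 1 at 0.697 FPKM beside 2 libraries above 60 FPKM.

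All 9 genes of the group that acts on RNA, DNA or nucleotides, enzymes and helicases apart from Tdrd7, had siCNN3 above siNC in every library, and 5 of them were called higher. Samhd1 encodes a hydrolase that depletes the deoxynucleotides needed for reverse transcription (chromosome 2, 157097533 to 157135265). It was at 22.9, 23.1 and 23.3 FPKM in the siNC libraries, compared with 77.5, 74.9 and 54.9 FPKM in the siCNN3 libraries. The siNC libraries were nearly equal for Samhd1, unlike for most genes described here, and the mean rose 2.99-fold, from 23.1 ± 0.199 to 69.1 ± 12.4 FPKM (SD, n = 3, log2 difference 1.52, standard error 0.153, adjusted p = 0.0099). Pnpt1, the gene of a polynucleotide phosphorylase found in mitochondria, was at 3.99, 5.20 and 10.6 FPKM in the siNC libraries, compared with 43.6, 38.9 and 31.4 FPKM in the siCNN3 libraries (log2 difference 2.44, standard error 0.316, adjusted p = 0.017). Tdrd7, a Tudor domain gene of ribonucleoprotein granules, was at 8.58, 14.9 and 12.7 FPKM in the siNC libraries, compared with 36.9, 36.8 and 34.6 FPKM in the siCNN3 libraries (log2 difference 1.54, standard error 0.196, adjusted p = 0.0165). The helicase gene Ddx60 was the lowest of these, at 0.0187, 0.778 and 0.195 FPKM in the siNC libraries, compared with 11.6, 9.94 and 3.53 FPKM in the siCNN3 libraries (log2 difference 2.73, standard error 0.418, adjusted p = 0.0305). For Znfx1, a helicase with zinc fingers that binds viral RNA, the values were 10.04, 14.3 and 10.7 FPKM in the siNC libraries, compared with 67.3, 54.3 and 26.2 FPKM in the siCNN3 libraries (log2 difference 1.90, standard error 0.341, adjusted p = 0.0492). The call of Samhd1 was lost on leaving out siNC replicate 3 or siCNN3 replicate 2, with 0.0642 as the highest adjusted p, and Pnpt1 and Tdrd7 were each called in 3 of 6 fits with a library left out, Ddx60 in 2 and Znfx1 in 1, each time including that without siCNN3 replicate 3 (adjusted p up to 0.0849, 0.0875, 0.142 and 0.186 in the others).

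The other 4 genes of this kind were not called. Isg20, an exonuclease gene, was at 11.98, 17.2 and 23.6 FPKM in the siNC libraries, compared with 44.1, 45.2 and 35.5 FPKM in the siCNN3 libraries. It had a log2 difference of 1.24 (adjusted p = 0.059), its mean being 17.6 ± 5.82 FPKM with siNC and 41.6 ± 5.26 FPKM with siCNN3 (SD, n = 3). The helicase gene Helz2 was at 3.03, 12.7 and 5.32 FPKM in the siNC libraries, compared with 19.2, 19.98 and 15.7 FPKM in the siCNN3 libraries (log2 difference 1.45, adjusted p = 0.149). Mov10, another helicase gene, was at 7.82, 12.25 and 9.90 FPKM in the siNC libraries, compared with 28.1, 27.1 and 12.33 FPKM in the siCNN3 libraries (log2 difference 1.03, adjusted p = 0.186). In siCNN3 replicate 3, Mov10 was barely above the highest siNC library. Nt5c3, which encodes a pyrimidine nucleotidase, was at 7.16, 8.30 and 8.85 FPKM in the siNC libraries, compared with 12.5, 12.6 and 8.94 FPKM in the siCNN3 libraries. Its replicate 3 values differed little between the groups (log2 difference 0.43, standard error 0.174, adjusted p = 0.294). Its transcript Nt5c3-202 had at most 0.0557 FPKM in siNC and 10.7, 2.59 and 0 FPKM in siCNN3, a failed estimate by the rule used here, and without it the log2 difference of the gene was -0.43 (adjusted p = 0.727).

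The intracellular regulators held the gene with the largest difference on the log2(FPKM + 1) scale, Ifi44, whose product is found in the cytoplasm and has an incompletely known role. It was at 1.16, 49.4 and 12.6 FPKM in the siNC libraries, compared with 420.1, 405 and 275 FPKM in the siCNN3 libraries. The siNC values of Ifi44 spread far apart, replicate 1 being the lowest, and it was not called despite a log2 difference of 4.99 (standard error 1.02, adjusted p = 0.0671). With a pseudocount of 0.1 in place of 1, Rsad2, Cmpk2 and Mx1 had larger differences (7.17, 5.56 and 5.51) than Ifi44 (5.29). Xaf1 encodes a partner of the apoptosis inhibitor XIAP and was at 6.14, 35.7 and 20.7 FPKM in the siNC libraries, compared with 175, 215 and 163 FPKM in the siCNN3 libraries. It was called higher (log2 difference 3.36, standard error 0.546, adjusted p = 0.0348). Samd9l, a restrictor of cell growth and of poxviruses, was at 6.76, 24.2 and 13.5 FPKM in the siNC libraries, compared with 95.2, 90.8 and 49.5 FPKM in the siCNN3 libraries, and was just past the threshold (log2 difference 2.43, standard error 0.448, adjusted p = 0.0499). Ifi35 and Nmi encode proteins that bind each other. Ifi35 was at 14.2, 43.7 and 25.96 FPKM in the siNC libraries, compared with 164, 149 and 93.5 FPKM in the siCNN3 libraries and was called (log2 difference 2.33, standard error 0.401, adjusted p = 0.0428). Nmi, at 1.32, 5.38 and 2.33 FPKM in the siNC libraries, compared with 23.6, 19.98 and 9.87 FPKM in the siCNN3 libraries, was not (log2 difference 2.28, standard error 0.442, adjusted p = 0.0586). The ubiquitin ligase gene Rnf114 was at 2.10, 3.47 and 2.63 FPKM in the siNC libraries, compared with 6.21, 10.2 and 7.85 FPKM in the siCNN3 libraries. It was called with all libraries (log2 difference 1.28, adjusted p = 0.0438), but in none of the 6 fits with a library left out (adjusted p between 0.0516 and 0.172). Its leading transcript, Rnf114-202, had a log2 difference of 0.67 with overlapping groups (adjusted p = 0.599), and Rnf114-201 made up 78.0% of the gene in siCNN3 replicate 2 and at most 7.99% in any other library. When a library was left out, Xaf1 was called in 3 of 6 fits and Samd9l and Ifi35 in 2, those without siNC replicate 2 or siCNN3 replicate 3 and, for Xaf1, without siNC replicate 1. The highest adjusted p in the others was 0.140, 0.190 and 0.167.

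Of the other regulators, Rnf213, the gene of a very large ubiquitin ligase with ATPase domains, was at 4.14, 20.5 and 8.36 FPKM in the siNC libraries, compared with 84.4, 78.7 and 22.4 FPKM in the siCNN3 libraries (log2 difference 2.42, adjusted p = 0.13). Rtp4, a receptor transporter gene, was at 4.61, 23.0 and 11.3 FPKM in the siNC libraries, compared with 55.6, 66.8 and 44.1 FPKM in the siCNN3 libraries (log2 difference 2.23, adjusted p = 0.0805). The highest siNC library and the lowest siCNN3 library were close for Rnf213 and further apart for Rtp4. Mitd1, which takes part in the last step of cell division, was at 5.31, 12.1 and 11.4 FPKM in the siNC libraries, compared with 45.9, 42.3 and 23.3 FPKM in the siCNN3 libraries (log2 difference 1.86, adjusted p = 0.0586). Ogfr, the opioid growth factor receptor gene, had the smallest difference of the 4, at 13.96, 26.2 and 18.3 FPKM in the siNC libraries, compared with 44.6, 40.8 and 31.2 FPKM in the siCNN3 libraries (log2 difference 0.99, adjusted p = 0.106). All 4 had siCNN3 above siNC in every library, and none was called.

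Shisa5, also named Scotin, encodes a protein of the endoplasmic reticulum. As a gene it was at 40.04, 53.3 and 15.6 FPKM in the siNC libraries, compared with 55.2, 52.6 and 37.3 FPKM in the siCNN3 libraries, and the groups overlapped (log2 difference 0.55, standard error 0.426, adjusted p = 0.576). Of its 6 transcripts, looked at after their values were seen, 4 also overlapped between the groups, and siCNN3 was above siNC in every library for Shisa5-203 and Shisa5-214. Shisa5-214 was at 0.595, 1.60 and 1.18 FPKM in the siNC libraries, compared with 2.05, 4.05 and 1.80 FPKM in the siCNN3 libraries. Shisa5-203 starts at base 109054863 of chromosome 9, 16298 bases after the first start of the gene, and has 4 exons and a coding sequence of 396 bases, against 6 exons and 708 bases in Shisa5-202. It was at 1.67, 6.39 and 3.69 FPKM in the siNC libraries, compared with 29.4, 28.1 and 15.9 FPKM in the siCNN3 libraries. Shisa5-203 thus made up 4.17%, 12.01% and 23.7% of the FPKM of the gene in siNC and 53.2%, 53.4% and 42.7% in siCNN3. Tested on its own over 21658 transcripts, of which 0.462% were called higher, it had a log2 difference of 2.45 with a standard error of 0.426 and was not called (adjusted p = 0.1). The long transcripts Shisa5-201 and Shisa5-202 changed places within siNC, at 31.2, 2.50 and 5.80 FPKM and at 3.66, 42.04 and 3.08 FPKM, and values of transcripts that share exons are uncertain to that extent. Of the 5 promoter windows of Shisa5, the 1 with the response element core was that near the start of Shisa5-203, printed above, with the match from base 33 counted from the RefSeq start as base 1.

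**Figure D4:**
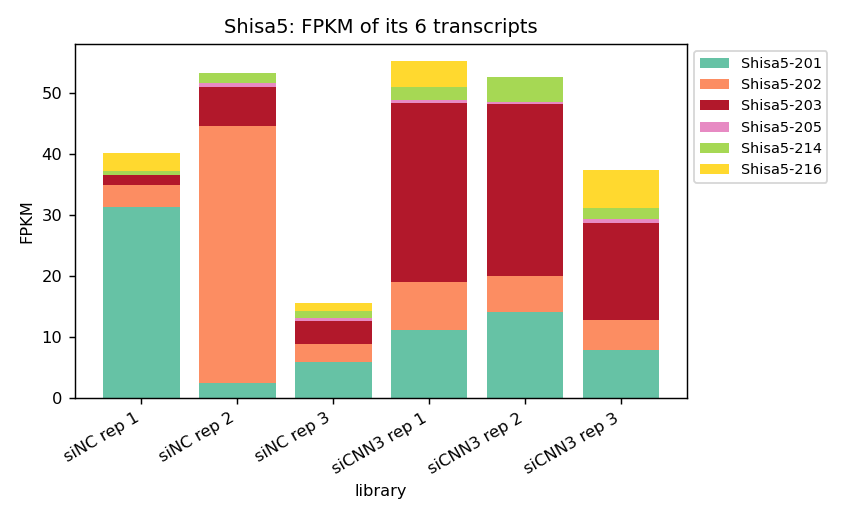
FPKM of the 6 transcripts of Shisa5 stacked for each library. Shisa5-203 (dark red) holds between 4.17% and 23.7% of the bar in siNC and between 42.7% and 53.4% in siCNN3, while the height of the bars overlaps between the groups.

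By single transcripts, 79 of the 84 transcripts of the 36 genes passed the filter and 3 were called higher, Plac8-201, Samhd1-201 and Nmi-202 (adjusted p = 0.0144, 0.0381 and 0.0416). In Helz2 the shares of the transcripts differed between libraries of the same group. Helz2-203 was at 0.016, 0.0247 and 0.269 FPKM in the siNC libraries, compared with 14.99, 12.6 and 0.476 FPKM in the siCNN3 libraries, and Helz2-202 was at 3.01, 12.7 and 2.83 FPKM in the siNC libraries, compared with 1.07, 1.94 and 14.97 FPKM in the siCNN3 libraries. Helz2-202 held 95.2% of the FPKM of the gene in siCNN3 replicate 3, at most 9.72% in the other siCNN3 libraries and 99.5%, 99.8% and 53.1% in the siNC libraries, and Helz2-201 held 41.8% in siNC replicate 3. None of the 3 transcripts was called (adjusted p = 0.371 for Helz2-203, 0.913 for Helz2-202 and 0.653 for Helz2-201).

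All 5 genes of secreted and surface proteins had siCNN3 above siNC in every library, and 2 were called higher. Plac8 encodes a small cysteine-rich protein (chromosome 5, 100553725 to 100572245). It was at 24.7, 28.6 and 33.1 FPKM in the siNC libraries, compared with 121, 123 and 106 FPKM in the siCNN3 libraries. This was the steadiest difference of the 35 genes, with a standard error of 0.139 on a log2 difference of 1.99 (adjusted p = 0.00473), a rise of 4.05-fold in the mean, and the 1 gene of them that was called with any library left out. Lgals9, which encodes the secreted lectin galectin-9, was at 24.1, 61.9 and 43.8 FPKM in the siNC libraries, compared with 181, 180 and 123 FPKM in the siCNN3 libraries (log2 difference 1.95, standard error 0.338, adjusted p = 0.043), and its call held in the fits leaving out siNC replicate 2 or siCNN3 replicate 3, while the others gave up to 0.162. Lgals3bp, the gene of a secreted glycoprotein that binds galectins, had the highest siCNN3 mean of these genes. It was at 31.1, 153 and 78.6 FPKM in the siNC libraries, compared with 518, 464 and 291 FPKM in the siCNN3 libraries and was not called (log2 difference 2.50, standard error 0.542, adjusted p = 0.0782). Cd274, which encodes the immune checkpoint ligand PD-L1, was at 0.207, 0.392 and 0.189 FPKM in the siNC libraries, compared with 9.10, 9.05 and 1.89 FPKM in the siCNN3 libraries (log2 difference 2.40, adjusted p = 0.0629). Ms4a4d, a gene of the tetraspanning MS4A family, was at 1.55, 1.39 and 1.23 FPKM in the siNC libraries, compared with 23.4, 19.2 and 4.93 FPKM in the siCNN3 libraries (log2 difference 2.58, adjusted p = 0.0591). In Cd274 and Ms4a4d the siNC libraries were close together and siCNN3 replicate 3 stood well below the other 2 siCNN3 libraries.

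The libraries of a group were ordered alike across these genes. Replicate 2 was the highest siNC library for 29 of 35 genes, or 82.9%, compared with 45.1% of all tested genes, and replicate 1 was the lowest for 29 (58.6% of all tested genes). As a library, siNC replicate 1 stood apart, with 2131 transcripts listed at 0, where the other 5 libraries had between 978 and 1333, and with an FPKM sum of 322621, where the others had between 347064 and 355591. The part of this in the order was not tested. Among the siCNN3 libraries, replicate 3 was the lowest for 30 genes, or 85.7%, compared with 48.4%. Over all tested genes it correlated at 0.947 and 0.956 with siCNN3 replicates 1 and 2, which correlated at 0.980 with each other (Pearson's r). With siNC replicates 1, 2 and 3 it correlated at 0.950, 0.941 and 0.951. Relative to the siNC mean, the median over the 35 genes was -0.50, 0.46 and 0.03 on the log2 scale for the siNC libraries, in the order of their numbers, and 2.26, 2.49 and 1.32 for siCNN3. Over all tested genes these medians lay between -0.11 and 0.06. Gene by gene, siCNN3 replicate 1 was the highest siCNN3 library for 22 of the 35 genes (62.9%, compared with 33.9% of all tested genes) and siCNN3 replicate 2 for 11 (31.4% and 28.1%), although the median was higher in replicate 2. Cnn3 was lowest in siCNN3 replicate 1 and highest in siCNN3 replicate 2, and its part in this order was not tested.

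For each gene, the difference between siNC replicates 2 and 1 was set against the difference between the siCNN3 mean and siNC replicate 3, which uses none of the same libraries. The first difference was above 0 for 34 of 35 genes, compared with 7564 of all 11593 genes, and the second for 32 of the 35. Pearson's r was 0.41 and Spearman's rho 0.34 across the 35 genes, and 0.17 and 0.10 across all 11593, as a description, since genes of 1 library share its depth and are not independent. Against the difference between siCNN3 replicates 1 and 3, the same siNC difference gave an r of -0.37 and a rho of -0.26 across the 35 genes, and 0.43 and 0.57 across all genes. In this comparison Mx2 lay far from the other genes, with 3.09 within siNC and -5.32 within siCNN3. The next lowest siCNN3 difference was -1.41, for Ifitm2, and the part of Mx2 in the correlation was not tested. Ifi44 had the largest difference between siNC replicates 2 and 1, with 4.54 on the log2 scale. Its difference between the siCNN3 mean and siNC replicate 3 was 4.74, where Rsad2 had the largest, 5.25. Samhd1 had 0.0088 for the first and 1.51 for the second difference, and Ifi27 had 1.30 and -1.79.

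**Figure D5:**
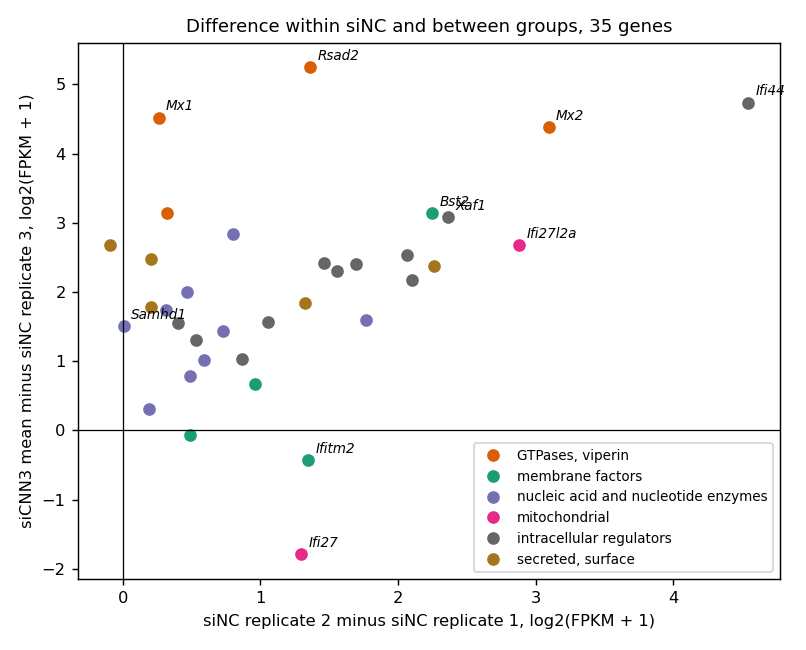
For each of the 35 tested genes, the difference between siNC replicates 2 and 1 (x axis) and between the siCNN3 mean and siNC replicate 3 (y axis), both in log2(FPKM + 1) and coloured by role. All points but 1 lie right of 0, and Ifi27, Ifitm1 and Ifitm2 are those below 0 on the y axis with a positive x.

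Single libraries decided many of the calls. Without siCNN3 replicate 3, 20 genes were called higher, 13 of them among the 14 called with all libraries, and the 7 more were Cmpk2, Mov10, Nmi, Rnf213, Mitd1, Cd274 and Ms4a4d (adjusted p up to 0.043). Without siNC replicate 2, 17 genes were called higher, 11 of them shared, and the 6 more were Helz2, Ifi27l2a, Nmi, Ifi44, Rtp4 and Lgals3bp (adjusted p up to 0.0374). Without siNC replicate 1 there were 5, without siNC replicate 3 or siCNN3 replicate 1 there were 2, and without siCNN3 replicate 2 there was 1. Over all genes the calls moved too, from 200 higher with all libraries to 444 without siCNN3 replicate 3 and 151 without siNC replicate 2, to 70 and 16 without siNC replicates 1 and 3, and to 39 and 29 without siCNN3 replicates 1 and 2. The median log2 difference of the 35 genes lay between 1.89 and 2.39 in these fits.

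The rest of the pathway was read from a list of 45 genes, of which 35 were tested. By limma, 9 were called higher (1.73% of all tested genes) and 0 lower (0.336%). At an unadjusted p below 0.05, 19 were higher (9.94% of all tested genes) and 1 was lower, Mavs (712 of all 11593). Among the ligands, Ifnb1, the gene of interferon beta, was listed at 0, 0.225 and 0 FPKM in the siNC libraries, compared with 6.60, 7.78 and 1.01 FPKM in the siCNN3 libraries, and Ifna4 at 0 FPKM in all siNC libraries and at 2.08, 2.52 and 0.137 FPKM in siCNN3. Neither was called (adjusted p = 0.0976 and 0.22), and both had replicate 3 as the lowest siCNN3 library. Without that library both were called higher, Ifnb1 with a log2 difference of 2.93 (adjusted p = 0.0014) and Ifna4 with 1.72 (adjusted p = 0.0049). No other fit with a library left out called either, and the adjusted p reached 0.306 for Ifnb1 and 0.565 for Ifna4. The 5 receptor genes and 3 kinase genes tested gave 0 calls and 0 at an unadjusted p below 0.05, and the largest of their log2 differences were -0.31 for the receptor gene Ifnar1 and 0.32 for the kinase gene Jak2. Of the transcription factors, Irf7, which amplifies the response, was called higher with a log2 difference of 4.36 (adjusted p = 0.0305). Among the sensors, Zbp1, which binds nucleic acid in the Z form, had 4.60 (adjusted p = 0.00473) and Dhx58, a regulator of RNA sensing, 3.33 (adjusted p = 0.043). Among the inhibitors, Usp18, which removes Isg15 and blocks the receptor, had 4.74 and was not called (adjusted p = 0.0525), and Trex1, a DNA exonuclease gene, had 2.99 and was called (adjusted p = 0.0144). With a library left out, Zbp1 was called in all 6 fits, Irf7 and Trex1 in the 3 lacking siNC replicate 1, siNC replicate 2 or siCNN3 replicate 3, and Dhx58 and Usp18 in the 2 lacking siNC replicate 2 or siCNN3 replicate 3. The adjusted p reached 0.126 for Irf7, 0.0808 for Trex1, 0.170 for Dhx58 and 0.198 for Usp18 in the fits that did not call them.

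Set beside the other interferon-induced families in the same fit, 3 of 5 tested IFIT genes, 6 of 8 OAS genes, 4 of 8 GBP genes and 4 of 9 IRG genes were called higher, with median log2 differences of 4.89, 4.01, 3.43 and 3.80. Of 38 TRIM genes 4 were called higher (median 0.14), and of 12 PARP genes 0 were called (median 0.70). Over all tested genes, 1.73% were called higher. At an unadjusted p below 0.05, 6 PARP genes were higher (9.94% of all tested genes) and 1 was lower (712 of all 11593). The median of 2.23 over the 35 genes described here lay between those of the first 4 families and those of the last 2, and the difference from any of them was not tested.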

How the data were processed

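RNA of 3 siNC and 3 siCNN3 libraries of C2C12 cells had been sequenced, and the authors deposited FPKM for 24023 Ensembl transcripts. The submitters' processing notes name Bowtie 0.12.2 and the builds mm8 and mm10 without their roles. The program that estimated FPKM and the read numbers are not given in the sources used here, so the depth behind a value is unknown. Identifiers were matched without version to GENCODE M21 of GRCm38 (23949 matched), and FPKM were summed by gene symbol. Genes whose mean reached 0.5 FPKM were fitted as log2(FPKM + 1) with limma 3.58.1 in R 4.3.3 (mean-variance trend, Benjamini-Hochberg adjustment over all 11593 genes), a fit that was tested on simulated data. Tables were written with Python 3.11.15, numpy 2.4.6 and pandas 2.3.3, and plots with matplotlib 3.10.9.

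The genes and all lists were chosen with earlier results of these data known, so no test was made over a list. Values in every library were printed for the called genes with the largest difference in each role (up to 4), the gene of each role with the highest siCNN3 mean, every gene with a log2 difference below 0.5, and some further genes chosen after their values were seen. In each role of the pathway the genes with the largest differences were named. An estimate was taken as failed where a transcript listed at 0 in a library reached 10 FPKM in one of the same group (235 transcripts). Alternatives were leaving out each library, a block for the replicate number, limma without a trend, a linear model of each gene on its own, leaving out failed estimates, testing single transcripts, a pseudocount of 0.1, a filter of 5 FPKM or none, and scaling by quantiles or by median of ratios. The leading transcript of a gene on its own was added after the data were seen. Some pathway results are not reported here.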

Additional observations from a re-analysis of the deposited data

How the results depend on the processing

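The number of effector genes called higher was 14 and stayed between 12 and 16 with another pseudocount, filter or scaling and with failed estimates left out. These were not always the same genes. With a pseudocount of 0.1, Mx1 and Samd9l lost the call and Cd274 and Ms4a4d gained it (12 of 14 shared), Znfx1 and Samd9l lost it with no filter or without failed estimates, and Isg20 and Mitd1 gained it under both scalings. The count was 9 without a trend in limma (Mx1, Znfx1, Ifi35, Samd9l and Lgals9 lost the call), 4 with the replicate block and 0 with each gene tested on its own (26 at an unadjusted p below 0.05), and ranged from 1 to 20 with 1 library left out, while 0 to 1 were called lower. Genes with siCNN3 below siNC in every library numbered 2 after quantile normalization and 1 to 2 with a library left out. Over all genes, 62 were called higher and 6 lower with the block, 0 and 0 with each gene on its own (1084 and 716 unadjusted), and 63 and 93 were called lower under median-of-ratios scaling and quantile normalization. With a library left out these counts ranged from 16 to 444 higher and from 4 to 161 lower. The pathway list had 3 calls with the block, 0 with each gene on its own and 1 to 13 with a library left out, and the 6 families together had 11, 0 and 1 to 36, against 21. The log2 difference of Cnn3 ranged from -1.46 to -0.95. By the leading transcript alone, of 20 genes with more than 1, Mx1, Znfx1, Tdrd7, Xaf1, Rnf114 and Lgals9 lost the call and Nmi gained it. Signs turned for Nt5c3 without its failed transcript or by its leading transcript (-0.43 for both), for Helz2 by its leading transcript (-0.37), and with a library left out for Ifitm1 (range -0.23 to 0.018) and Ifitm2 (range -0.50 to 0.36, above 0 at 0.17, 0.10 and 0.36). The cause was not tested.

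The replicate numbers were not taken as pairs. Deviations from the group means correlated at -0.28, 0.31 and -0.02 between libraries numbered 1, 2 and 3, and siCNN3 replicate 2 alone correlated best with the library of its own number. The 4 genes called with the block were Mx1, Rsad2, Samhd1 and Plac8. Unknown depth limits what can be said of genes listed below 1 FPKM.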
